A study of Mus musculus with 18 samples.

Results

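Small bowel epithelial cells were the 1468 cells, of 38585 in the 2 small bowel fractions and 60272 in the whole series, that passed a rule on raw molecule counts (unique molecular identifiers, UMIs). A cell had under 20% mitochondrial counts, at least 3 UMIs of Epcam, at least 1 of Krt8 and 0 in all of Ptprc, Cd3e and Cd79a. The cells were thus chosen by these measured counts, and the levels of the 5 rule genes are no finding. The epithelium fraction gave 707 of 16985 cells and the lamina propria fraction 761 of 21600. The study isolated cells from mice that lack St8sia6 (KO), from St8sia6 heterozygotes (het) and from St8sia6-sufficient wild types (WT), and enriched them for CD45+ immune cells after a Percoll gradient. Epithelial cells lack CD45 and were not the cells selected for, so their number and mix need not follow the tissue. The procedure was run 3 times, each time with 1 KO, 1 het and 2 WT mice, and the cells of each genotype carried their own hashtag antibody, the 2 WT mice sharing one. Sex, age and the exons removed by the St8sia6 allele were not given in the sources used here.

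The small bowel epithelium is renewed from Lgr5-bearing stem cells at the crypt base. Their daughters divide as transit amplifying cells, and most become absorptive enterocytes that climb the villus, while others become mucus-secreting goblet cells, hormone-secreting enteroendocrine cells or chemosensory tuft cells. Paneth cells stay in the crypt and secrete defensins and lysozyme. St8sia6 encodes a sialyltransferase that adds a sialic acid in alpha-2,8 linkage to another sialic acid.

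Library sums of the epithelial cells ranged from 2947526 to 4156480 UMIs in the epithelium fraction and from 2365713 to 5705228 in the lamina propria fraction, with medians of 8324 and 11935 UMIs per cell. The label was checked on 7 general epithelial genes outside the rule, each of which had a UMI in 72.8% or more of the cells of either fraction. Cldn7, a tight junction claudin, had a UMI in 89.0% and 93.4% of the cells, and stood at 1263, 977 and 1301 CPM, its UMIs scaled to 1000000 in all, in the 3 epithelium libraries against 20.7 in that fraction's immune cells. At the threshold, 74 cells of the epithelium fraction had exactly 3 Epcam UMIs and 127 otherwise similar cells had 2, with 68 and 108 in the lamina propria fraction. No barcode was shared between genotypes of a library, or between members of the 2 fractions, and 1 member barcode of the lamina propria occurred in more than 1 library. The WT cells of lamina propria library 3 stood apart. Their non-epithelial cells had a median of 1356 UMIs, against 3068 to 4623 in the other lamina propria groups, and the WT hashtag led in 54.8% of them.

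St8sia6 itself gave no check of the genotypes. The epithelium fraction held 2, 0 and 5 St8sia6 UMIs in the WT cells of libraries 1, 2 and 3, and none in het or KO cells. In the lamina propria fraction, the KO cells held 6, 3 and 2 UMIs, the het cells 7, 4 and 3, and the WT cells 3 in each library. The KO and WT counts overlapped there, and whether these reads lie outside the removed part of the gene was not tested. By state, the St8sia6 level was 48.5 CPM in the small cluster unnamed 17, described below, and at most 5.42 CPM in every other state.

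Clustering of the 1468 cells gave 18 clusters, of which 13 matched fixed marker lists and 5 stayed unnamed. Because the clusters were built from these genes, the levels that follow are descriptions, summed over the cells of a state, with no test. Enterocyte-like cells (302 cells, 4 clusters) carried the apolipoproteins Apoa1 at 5984 CPM and Apoa4 at 1502 CPM, which coat dietary lipid particles, the fatty acid carrier Fabp1 at 4429.5 CPM and the disaccharidase Sis at 902 CPM. Fabp1 varied among the epithelium libraries of this state, at 6096, 1205 and 6586 CPM, library 2 being low, whereas Apoa1 was level at 7662, 8904 and 6749.6 CPM. The enterocyte-like cells of the lamina propria fraction had lower levels of lipid and villus tip genes. Apoa4 stood at 107, 38.6 and 56.1 CPM there against 1925, 2039 and 1820.3 CPM in the epithelium fraction, and the villus tip gene Ada, adenosine deaminase, at 5.84, 3.86 and 0 CPM against 169, 466 and 245 CPM. Of the 43 such lamina propria cells 42 lay in a single cluster (cluster 5), which also held 69 of the 259 of the epithelium fraction.

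A separate ileal enterocyte-like cluster (34 cells) was set off by Fabp6, the bile acid carrier of the distal bowel, at 16028 CPM against 379.8 CPM in the other enterocyte-like cells. The bile acid exporter subunit Slc51b stood at 290.0 CPM and the importer Slc10a2 at 37.8 CPM. The same cells held the highest levels of the C-type lectins Reg3b, 26308 CPM, and Reg3g, 12643 CPM, secreted proteins that act on bacteria. Fabp1 was at 3.02 CPM in this cluster. Fabp6 helped to name the cluster, and sums over a state do not show whether single cells held both genes. Fabp6 had a UMI in 14.4% of all members of the epithelium fraction. At the coarser clustering resolution of 0.5, the ileal enterocyte-like cluster held 145 cells.

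**Figure D1:**
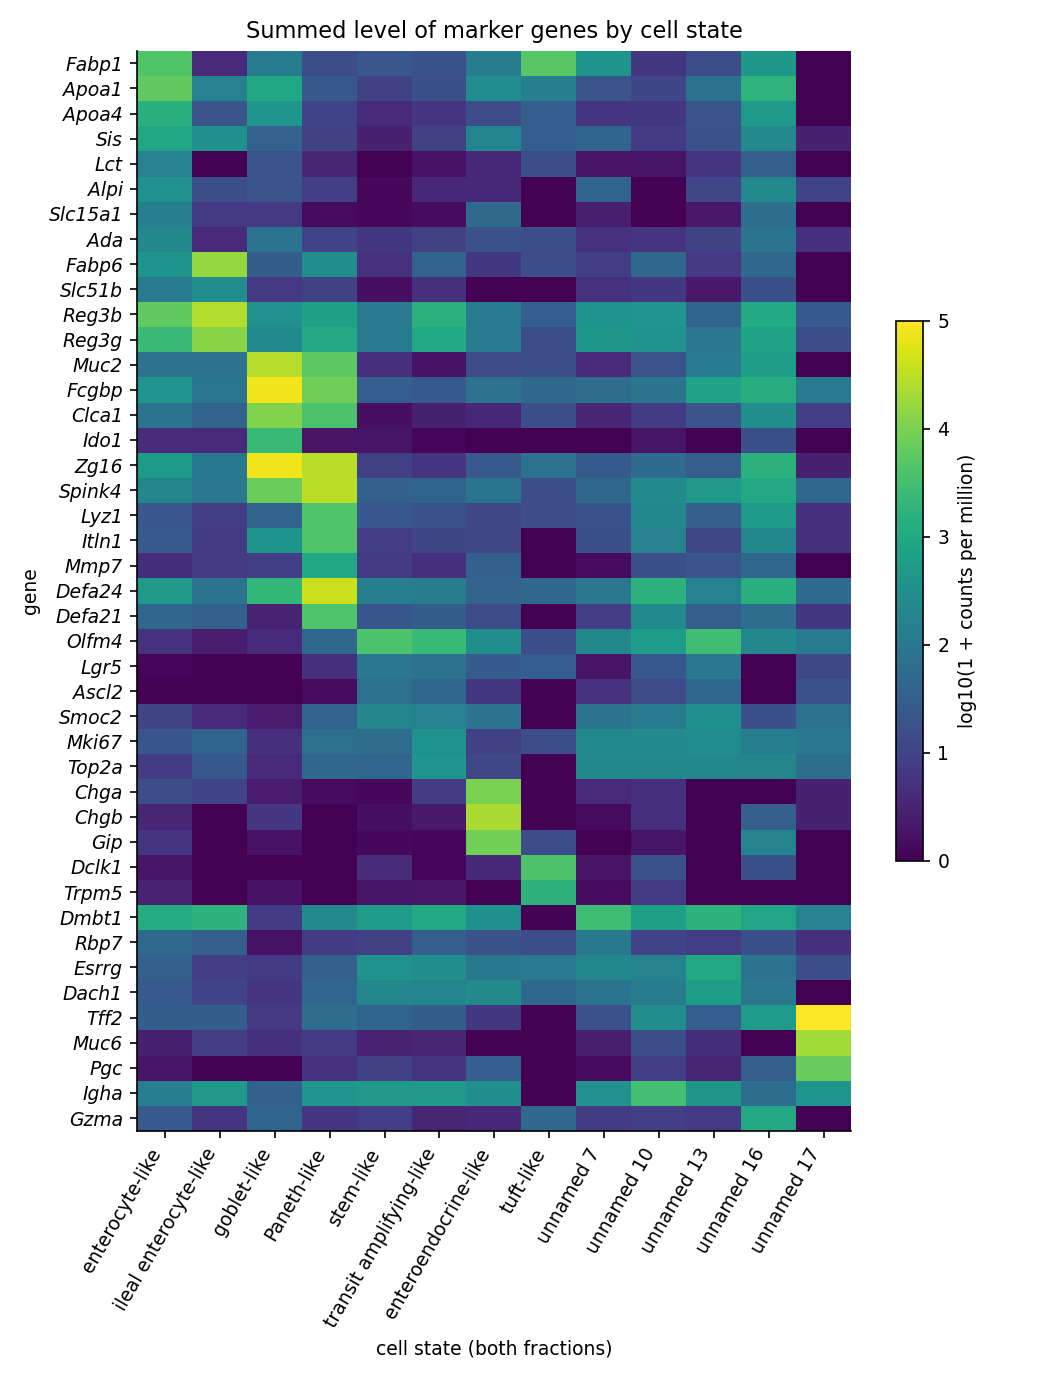
Summed level of marker genes in each cell state, both fractions together. Rows are genes, columns are the 13 states (the enterocyte-like, Paneth-like and transit amplifying-like states each join several clusters), and colour is log10 of 1 plus CPM. Fabp1 is higher than Fabp6 in the enterocyte-like column and lower than Fabp6 in the ileal enterocyte-like column. Zg16 and Spink4 light up in both the goblet-like and the Paneth-like column, and Tff2, Muc6 and Pgc in the column of unnamed 17.

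Goblet-like cells (165) were dominated by mucus genes. The mucus-layer protein Fcgbp reached 78423 CPM, the lectin Zg16 76979.7 CPM, the trefoil peptide Tff3 67696 CPM and the gel-forming mucin Muc2 27695 CPM. Ido1, which degrades tryptophan, stood at 2026, 2156 and 3407 CPM in the 3 epithelium libraries of this state and at 2.87 CPM in enterocyte-like cells. Paneth-like cells (114, 2 clusters) held the defensin Defa24 at 38966 CPM, intelectin Itln1 at 4361 CPM and lysozyme Lyz1 at 4308 CPM. Cluster 1 (105 cells, 70 of them in the lamina propria fraction) had 5 of the 12 Paneth markers raised: Lyz1, Itln1, Mmp7, Ang4 and Defa24. Cluster 12 (9 cells, 7 of them in the lamina propria fraction) had all 12 raised. Summed over both clusters, Paneth-like cells also held goblet-list genes, with Zg16 at 29522 CPM, Spink4 at 30542 CPM, above the goblet-like 7054 CPM, and Muc2 at 5502 CPM. Defensins differed strongly between lamina propria libraries: Defa21 in Paneth-like cells stood at 8063, 91.5 and 12793 CPM and Defa24 at 86009.8, 4715 and 79486 CPM, library 2 being low for both. Near-identical defensin copies can split or share reads, so single defensin levels are uncertain.

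Stem-like cells (161) carried Olfm4, a secreted glycoprotein of crypt base columnar cells, at 3886 CPM, Lgr5, the R-spondin receptor, at 92.9 CPM, and the Wnt-target transcription factor Ascl2 at 67.7 CPM. Transit amplifying-like cells (200, clusters 9 and 11) had the proliferation marker Mki67 at 353 CPM against 60.4 CPM in stem-like cells, and kept Olfm4 at 2333 CPM and Lgr5 at 71.9 CPM. Lgr5 was at 0.221 CPM in enterocyte-like cells. Cells without Lgr5 UMIs were the rule: 7.07% of all members of the epithelium fraction and 22.2% of the lamina propria fraction had any. Summed over all members and not normalized further, Lgr5 stood at 20.2, 28.5 and 15.2 CPM in the epithelium libraries. In the lamina propria libraries it stood at 54.5, 33.0 and 47.3 CPM. The immune cells of these fractions had summed levels of 0.311 and 0.513 CPM.

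Fabp1 marks the absorptive and Olfm4 the crypt end of these states, and their promoters are shown for that reason. Each covers 250 bases before and 50 after the RefSeq start on GRCm38.p6, both on the plus strand, chr6:71199629-71199928 and chr14:80000052-80000351. Capitals mark GTTAAT, the core of the motif bound by the HNF1 factors, and in Fabp1 also a TATA box.
Fabp1: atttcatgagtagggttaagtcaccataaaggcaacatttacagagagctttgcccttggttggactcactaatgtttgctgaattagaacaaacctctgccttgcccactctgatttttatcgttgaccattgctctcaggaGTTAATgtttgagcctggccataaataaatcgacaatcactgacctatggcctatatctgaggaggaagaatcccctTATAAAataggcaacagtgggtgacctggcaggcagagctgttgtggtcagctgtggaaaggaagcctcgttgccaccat
Olfm4: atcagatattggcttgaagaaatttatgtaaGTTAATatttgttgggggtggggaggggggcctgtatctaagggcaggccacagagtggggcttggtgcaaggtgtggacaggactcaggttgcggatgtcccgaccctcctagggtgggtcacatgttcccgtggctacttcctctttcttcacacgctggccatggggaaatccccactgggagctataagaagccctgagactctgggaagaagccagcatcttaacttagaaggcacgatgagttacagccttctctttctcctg
Searched on both strands, GTTAAT lay in 7.10% and the TATA box, TATAAA, in 13.6% of 32851 promoters of that length, and in 2 and 4 of the 12 promoters matched for the 14 enterocyte genes. Fabp1 held both and Olfm4 held GTTAAT only. A match describes letters, not a bound site.

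Rarer states were present too. Enteroendocrine-like cells (29) expressed the granule proteins Chgb at 23294 CPM and Chga at 9709 CPM. For 2 hormones most UMIs sat in 1 cell: 3077 of the 3153 Gip UMIs of the epithelium fraction, the gastric inhibitory polypeptide, came from 1 cell, and 1237 of the 1594 Gcg UMIs of the lamina propria fraction, preproglucagon, from another. Tuft-like cells (9) had the kinase Dclk1 at 3969.8 CPM and the taste channel Trpm5 at 1714 CPM. Unnamed 17 (24 cells, 23 of them in the lamina propria fraction) held the trefoil peptide Tff2 at 207218 CPM, the mucin Muc6 at 19989 CPM, the pepsinogen Pgc at 6950.3 CPM and Gkn3 at 41133 CPM. No list fixed for these data describes such cells, so they were given no name. Unnamed 7 (106 cells) was led by Rbp7 and Dmbt1, and unnamed 13 (51 cells) by Esrrg and Dach1 with Olfm4 at 2951 CPM and Lgr5 at 102 CPM.

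The other 2 unnamed clusters were low in UMIs and held immune transcripts. Unnamed 10 (230 cells, 206 in the lamina propria fraction) had a median of 3782 UMIs and stood at 4208, 3673 and 3509.8 CPM of the immunoglobulin constant gene Igha in the 3 lamina propria libraries, against 737, 578 and 952 CPM in stem-like cells of the same libraries. Unnamed 16 (43 cells, all of the epithelium fraction) had a median of 1306 UMIs and the granzyme Gzma at 601, 1336 and 545 CPM. Igha encodes the IgA heavy chain of plasma cells and Gzma a granule protease of cytotoxic lymphocytes. Whether free RNA or joined cells gave these UMIs was not tested.

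The 2 fractions held different states. Of the epithelial cells of the epithelium fraction, 36.9% ± 4.76 (SD, n = 3 libraries) were enterocyte-like and 22.4% ± 8.41 goblet-like, against 5.78% ± 0.435 and 0.367% ± 0.320 in the lamina propria fraction. The lamina propria fraction was richer in stem-like cells, 15.3% ± 5.58 against 5.13% ± 2.51, transit amplifying-like cells, 20.9% ± 4.40 against 5.11% ± 1.79, and Paneth-like cells, 10.9% ± 2.33 against 5.22% ± 1.93. The libraries of the 2 fractions did not overlap for any of these 5 states, and each gave p = 0.1 in a two-sided exact permutation test, the smallest p that 3 against 3 libraries allow (0.144 after Benjamini-Hochberg adjustment over 13 states). All 9 tuft-like cells came from the epithelium fraction, and 0 of 761 in the lamina propria fraction allow a share of up to 0.394%. The enteroendocrine-like shares overlapped, 2.35% ± 0.787 against 2.03% ± 1.51 (exact p = 0.7). At the coarser clustering resolution of 0.5 the epithelium minus lamina propria difference of the stem-like share went from -10.2 to -16.6 percentage points and that of the transit amplifying-like share from -15.8 to -8.53. Clusters were formed on both fractions together, so genes that differ between fractions took part in defining them. Fewer cells of a state in a fraction and less efficient recovery of that state cannot be told apart.

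**Figure D2:**
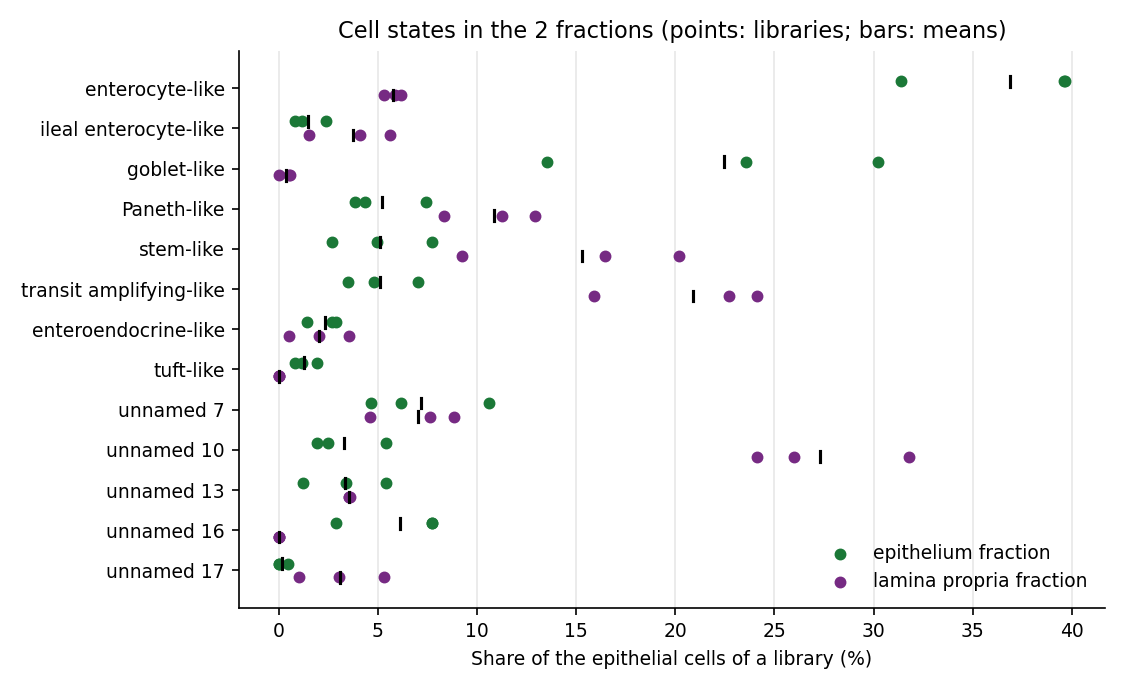
Share of each cell state among the epithelial cells of a library, in percent (x axis), for the 3 libraries of the epithelium fraction and the 3 of the lamina propria fraction. Points are libraries and bars their means. Enterocyte-like cells lie between 31.4% and 39.7% in the epithelium fraction and between 5.30% and 6.15% in the lamina propria fraction.

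Summed over all states, 2370 of 11260 genes tested (21%) differed between the fractions (edgeR quasi-likelihood test, adjusted p under 0.05), 1440 higher (12.8%) and 930 lower (8.26%) in the epithelium fraction. Absorptive genes were on the higher side. Of the 14 enterocyte genes 13 were higher, of 17 genes of lipid absorption and chylomicron assembly 14, of 9 genes of sugar digestion and transport 9, and of 13 of peptide digestion and transport 13, with none lower. The median log2 difference of the enterocyte genes was 3.12, and that of all genes -0.01. Apoa4 stood at 699, 674 and 675 normalized CPM in the epithelium libraries and 10.7, 4.02 and 5.97 in the lamina propria libraries (edgeR log2 difference 6.53, SE 0.32, adjusted p = 2.31e-06). The peptide transporter Slc15a1 stood at 48.8, 78.2 and 65.3 against 1.94, 0.731 and 5.12 (4.73, SE 0.38). Libraries of the 2 fractions did not overlap for either gene. The lactase gene Lct differed by 4.46 and the trehalase Treh by 4.31 on the log2 scale. Fabp6 was not called (718, 1209 and 742 against 186, 695 and 485 CPM, log2 difference 0.97, adjusted p = 0.114 by edgeR's quasi-likelihood test), although its libraries did not overlap. With WT cells only the Fabp6 difference turned to -0.86.

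Genes of the villus tip were among the higher ones. Of 11 such genes 9 were higher, including Ada (62.7, 165 and 96.5 against 5.28, 4.39 and 4.27 CPM, log2 difference 4.48) and the ectonucleotidase Nt5e (11.3, 18.6 and 24.1 against 0, 1.83 and 0.427 CPM). Both belong to the purine breakdown that villus tip cells perform. Goblet genes were higher in 5 of 8 cases, with Muc2 at 3845, 7208 and 2049 against 415, 1050.3 and 912 CPM. Ido1, at 235, 475 and 217 against 0.704, 0 and 0 CPM, was called as well (adjusted p = 6.44e-06 by edgeR's quasi-likelihood test). All 6 tuft genes tested were higher, Dclk1 by 4.97.

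Signals to lymphocytes were also higher in the epithelium fraction. The butyrophilin-like genes Btnl1, Btnl2, Btnl4 and Btnl6 were all higher, Btnl1 at 60.3, 56.1 and 57.4 against 13.5, 16.8 and 14.1 CPM (1.98, SE 0.16, adjusted p = 3.11e-05). Some products of this family on enterocytes maintain intraepithelial gamma-delta T cells. Il15, a survival cytokine of intraepithelial lymphocytes, was higher by 1.81 and Il18 by 2.01. In all 8 of 15 genes of this list were higher and 1, the chemokine Ccl28, was lower. Of 11 interferon-response genes 6 were higher, among them the interferon regulatory factor Irf7 (2.40), and the T cell chemoattractant Cxcl10 was lower (1.68, 0.701 and 0.525 against 16.2, 10.2 and 14.1 CPM, -3.72). None of the 7 genes of the major histocompatibility complex class II list was called in either direction.

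Crypt genes lay on the lower side. Of 12 Paneth genes 6 were lower, of 8 stem genes 5 and of 9 transit amplifying genes 4, with none higher. The stem list includes Gkn3 and Slc12a2, both also raised in unnamed 17, which had 23 of its 24 cells in the lamina propria fraction. The part of that cluster in the stem list was not tested. Lgr5 stood at 20.2, 29.4 and 15.5 against 54.7, 32.2 and 47.8 CPM (-1.08, SE 0.26, adjusted p = 0.0149), Lyz1 at 319, 76.8 and 178 against 781, 365 and 1535 CPM (-2.22), and Olfm4 missed the threshold (adjusted p = 0.057). Of 19 genes induced by dissociation 5 were lower, for example the heat shock gene Hspa1a (-1.57). Immune transcripts moved with the fraction: summed over 12 T cell genes they ranged from 59.9 to 155 CPM in the epithelium libraries and from 4.91 to 9.30 in the lamina propria libraries, and over 6 plasma cell genes from 156 to 218 and from 2188 to 2453. The plasma cell list holds Xbp1 beside immunoglobulin genes, so its sum is not immunoglobulin RNA alone. With 1 library left out, the log2 difference was -7.61 to -7.24 for Igha and -6.55 to -5.75 for Jchain. All 12 T cell genes had counts in the epithelium fraction, Trdc was at 0 in the lamina propria fraction, and their part in the other differences was not tested. Genotype moved with the fraction as well, since 586 of 707 cells were WT in the epithelium fraction and 248 of 761 in the lamina propria fraction. With WT cells only 1642 genes were called, 1033 higher and 609 lower. Without lamina propria library 1 there were 1044 calls and without epithelium library 1 there were 1411, and 50 of the 62 called genes checked one by one stayed called whichever library was left out.

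**Figure D3:**
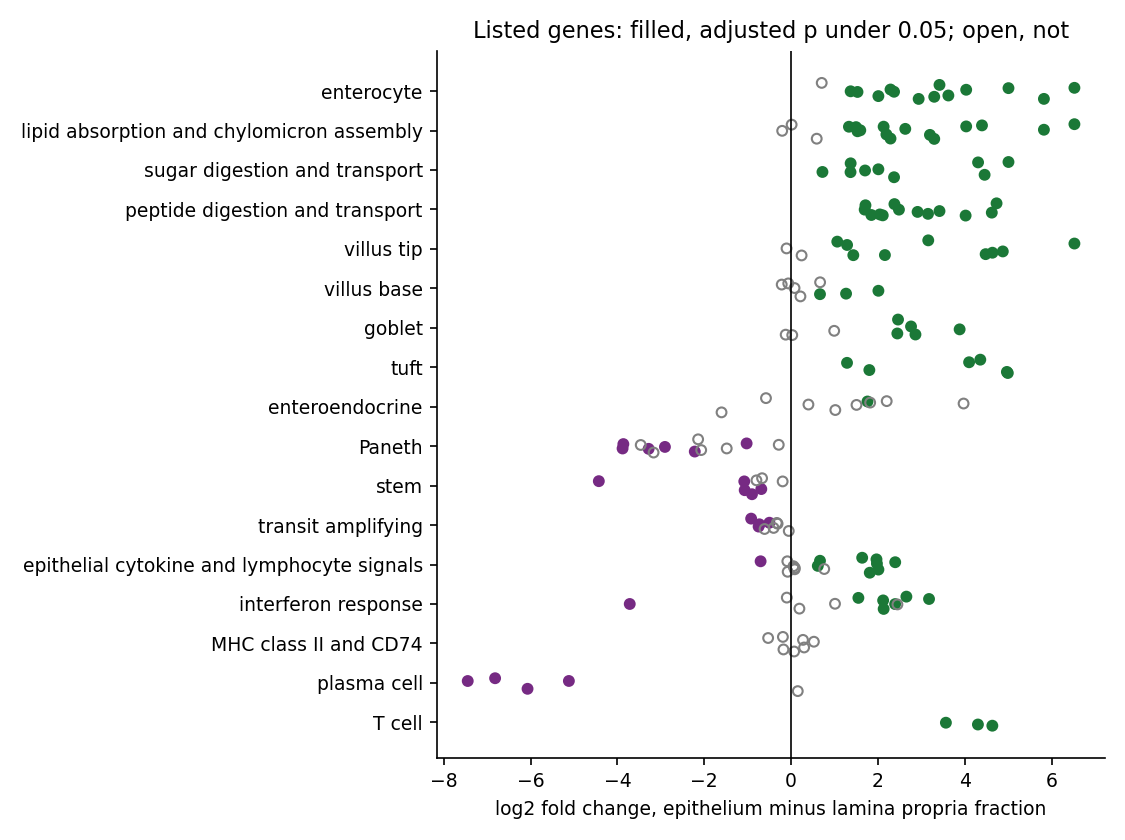
Log2 difference between the epithelium and the lamina propria fraction (x axis) for the tested genes of 17 lists, 1 point per gene. Filled green points were higher and filled purple points lower in the epithelium fraction at an adjusted p under 0.05, open points were not called. The medians of the absorptive, villus tip and tuft lists lie right of 0, and those of the Paneth, stem and transit amplifying lists left of it.

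Within the crypt states fewer genes were called, from fewer cells. Between stem-like and transit amplifying-like cells of the 2 fractions (clusters 4, 9 and 11), 94 of 8577 genes were called (1.1%), 47 in each direction (0.548%). No stem gene (of 8 tested) and no transit amplifying gene (of 9) was among them. Lgr5 stood at 72.7, 132 and 47.8 against 92.6, 55.3 and 113 CPM (log2 difference -0.13, SE 0.27) and Olfm4 at 3373, 4037 and 2651 against 3219.6, 2496 and 3212 CPM (0.17, SE 0.19). Plasma cell genes were lower in 3 of 4 cases. Igha was at 1.86, 0 and 0 against 737, 767 and 986 CPM, and Apoa1 at 35.4, 31.5 and 29.4 against 2.46, 3.75 and 2.54 CPM. The linker histone gene Hist1h1a, expressed in DNA synthesis, was higher in the epithelium fraction (35.4, 114 and 33.1 against 15.1, 17.8 and 7.62 CPM, 1.93, SE 0.39, adjusted p = 0.0107). Without epithelium library 2 the calls rose to 257, and with the library number as a block to 184.

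Colon cells taken by the same rule (2037 of 21687 cells, of lamina propria and epithelium combined) give a regional contrast. Of 12545 genes 4370 were called (34.8%), 2212 higher (17.6%) and 2158 lower (17.2%) in the small bowel epithelium fraction. All 14 enterocyte and all 11 Paneth genes tested were higher in the small bowel. Fabp1 stood at 2188, 406 and 2662 against 0.318, 0.315 and 0.209 CPM, and Olfm4 at 987, 986 and 793 against 0.371, 0 and 0.139 CPM (adjusted p = 1.30e-07). Ccl25, the chemokine that draws lymphocytes to the small bowel, stood at 392, 259 and 456 against 14.1, 13.7 and 12.2 CPM. Interferon-response genes were lower in 12 of 15 cases and class II genes in 6 of 7, Cd74, the class II invariant chain, at 1288, 1327 and 1372 against 3428, 3044 and 3915 CPM (-1.38, SE 0.17, adjusted p = 0.000272). Cd74 libraries did not overlap between the organs. Plasma cell genes moved with the organ as well, 4 of 5 (Igha, Igkc, Jchain and Mzb1) being lower in the small bowel, with Igha at 4.27, 6.45 and 7.02 against 89.2, 88.0 and 118 CPM, and so did 37 of 47 variable-region genes of immunoglobulins and T cell receptors. Their part in the class II values was not tested. Of 18 antimicrobial genes 10 were higher and 6 lower, the latter including the oxidase Duox2 (-1.22) and the nitric oxide synthase Nos2 (-1.49). Genotype moved with the organ too, since 586 of 707 cells were WT in the epithelium fraction and 857 of 2037 in the colon. With WT cells only 3195 genes were called, 1693 higher and 1502 lower in the small bowel. The colon preparation was not split into fractions, so organ and preparation cannot be told apart.

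In the epithelium fraction, the share of epithelial cells was higher among WT than among het or KO cells in every library. Members were 16.8%, 15.4% and 5.43% of the WT cells of libraries 1, 2 and 3, 1.25%, 0.760% and 1.74% of the het cells and 1.11%, 1.07% and 1.02% of the KO cells. The KO and WT shares did not overlap, with a difference of -11.5 percentage points. A two-sided exact permutation test gave p = 0.1, the smallest it can give. It did not pair the genotypes of a library, although each library held all of them. With genotype taken from each cell's hashtag share the difference was -3.15 percentage points. In the lamina propria fraction the KO shares of 6.60%, 2.23% and 1.28% overlapped the WT shares of 5.20%, 1.82% and 1.95%. The hashtags separated many of these cells poorly, and unevenly by genotype. The WT hashtag was the leading one in 81.6%, 62.9% and 100% of the WT members of the epithelium fraction. In the other WT cells of that fraction it led in 85.3%, 74.9% and 100%. Het and KO members there had their own hashtag in the lead in 100% of cells in every library. The own hashtag made up at least 80% of the hashtag counts in 97 of 586 WT, 2 of 56 KO and 50 of 65 het members. KO members were also deeper, with medians of 18673 to 21842 UMIs per cell against 6331 to 13393 in WT. Recovery after the CD45 selection and the tissue itself cannot be told apart.

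**Figure D4:**
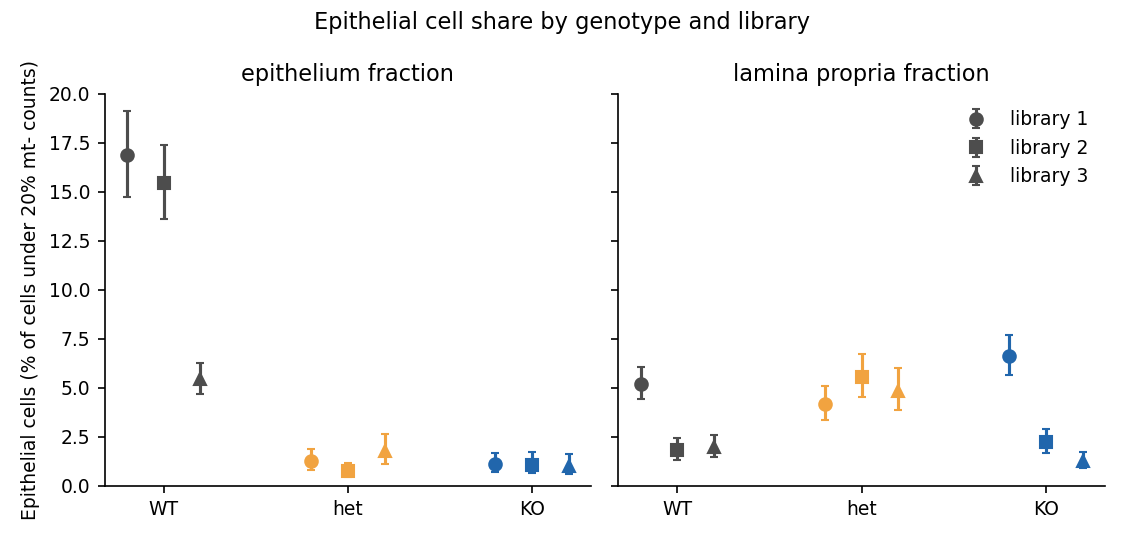
Share of epithelial cells among all cells under 20% mitochondrial counts (y axis, percent), by genotype and library, in the epithelium fraction (left) and the lamina propria fraction (right). Bars are exact 95% binomial intervals and cover counting error only. The WT shares of the epithelium fraction lie at 5.43% and above, and every het and KO share there at 1.74% and below.

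The WT cells of the epithelium fraction were also a different mix. Enterocyte-like cells made up 41.5% ± 5.83 (SD, n = 3 libraries) of WT members, 241 cells, against 12.8% ± 4.38 of KO members, 7 cells, and 16.6% ± 5.81 of het members, 11 cells. Transit amplifying-like cells were 20.2% ± 5.71 of KO and 3.26% ± 2.05 of WT members. Both gave p = 0.1 in the same unpaired exact permutation test, the smallest it can give, and 0.433 after Benjamini-Hochberg adjustment over 13 states. Goblet-like cells were 42.9% ± 2.92 of het members, 28 cells, while the shares of 13.9% ± 6.95 in KO and 20.8% ± 9.85 in WT overlapped (exact p = 0.4), as did the Paneth-like and the stem-like shares. With 7 KO enterocyte-like cells no gene test within enterocytes could be run.

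Over all members of the epithelium fraction, 142 of 6813 genes were called between KO and WT (2.08%), 17 higher (0.25%) and 125 lower (1.83%) in KO. The lower side held absorptive genes: 4 of 13 enterocyte genes, 7 of 15 lipid genes and 5 of 12 peptide genes, with Apoa4 at 11.3, 225 and 76.2 CPM in KO and 922, 856 and 765 in WT (-3.40, SE 0.71, adjusted p = 0.0364), beside the lower share of enterocyte-like cells given above. Paneth genes were lower too, 4 of 7 (Ang4, Defa22, Defa30 and Itln1) with a median of -2.36 against 0.02 for all genes. Few cells lay behind this: Paneth-like cells were 5 in KO (8.02% ± 9.28 of members) and 31 in WT (5.30% ± 1.16). Of cluster 12, which had all 12 Paneth markers raised, 0 cells were KO and 2 were WT here. The part of this cell mix in the Paneth genes was not tested. Itln1, a lectin that binds microbial sugars, stood at 40.9, 45.0 and 38.1 CPM in KO and 369.7, 519 and 235 in WT (-3.19, SE 0.47, adjusted p = 0.00926), with no overlap. Of 13 antimicrobial genes 2 were higher and 5 lower, the latter being these 4 and Reg3a. Pck1, the gluconeogenic enzyme, was lower in KO than in WT (13.6, 5.62 and 2.54 against 101, 79.1 and 68.0 CPM, -3.45) and lower than in het (72.5, 72.7 and 106 CPM, -3.47). On the higher side, Reg3g stood at 2279, 6581 and 7155 against 1007, 1163 and 884 CPM (2.29, SE 0.32, adjusted p = 0.00827), Reg3b at 3507, 10675 and 14513 against 3269, 2283 and 2477 CPM (1.67, adjusted p = 0.0481), and the Wnt-feedback gene Axin2 was higher by 1.27. The ileal enterocyte-like state, the highest in Reg3b and Reg3g, made up 7.40% ± 3.84 of KO members here, 4 cells. In WT it was 0.866% ± 0.338, 5 cells. Its part in the Reg3b and Reg3g values was not tested. Under a stricter rule that barred 8 further immune genes, the adjusted p of Reg3g was 0.175 and that of Reg3b 0.715, with 32 calls in all, and without the library block there were 55. The count fell to 41 when library 1 was left out and to 5 when library 3 was. Of 18 called genes checked one by one, 3 stayed called whichever library was left out, Pck1 among them. Apoa4, Itln1, Axin2, Reg3g and Reg3b did not.

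Of the genes called there, Gm10260 had the largest fitted difference. It is a ribosomal protein pseudogene, listed by RefSeq as Rps18-ps6 (GRCm38.p6 chr13:97760087-97760609), whose reads may be shared with its parent gene. It had 1380, 978 and 1808 UMIs in the WT libraries, 1, 1 and 0 in the KO libraries and 0, 1 and 0 in the het libraries, and stood at 424, 421 and 573 CPM in WT, 2.19, 2.78 and 0 CPM in KO and 0, 3.75 and 0 CPM in het cells (KO against WT adjusted p = 3.47e-06). In the lamina propria fraction the WT levels were 491, 1050.4 and 1.58 CPM, library 3 lying at the KO level of 1.84, 0 and 1.66 CPM. In that library the WT hashtag led in 93.9% of the WT members and in 54.8% of the non-epithelial WT cells. Whether the hashtags bear on this Gm10260 level was not tested. Between het and WT 6 of 6813 genes were called (0.0881%), 1 higher (0.0147%) and 5 lower (0.0734%) in het, and between KO and het 3 (0.044%), all lower in KO. Without library 2 the het count was 17 and without library 3 it was 2, while the KO to het count was 37 without library 1 and 0 without library 3, where edgeR's quasi-likelihood test left 553 genes at an unadjusted p under 0.05. Checked one by one, 1 of the 6 genes called between het and WT stayed called whichever library was left out. Between KO and het 0 of 3 did. Het cells had the fibrocystin gene Pkhd1 at 44.5, 113 and 51.5 CPM, against 5.84, 37.9 and 9.48 in WT and 2.27, 5.62 and 5.08 in KO. The angiogenin Ang4, a Paneth and goblet antimicrobial, was lower in het than in WT (21.1, 8.08 and 9.66 against 732, 471 and 453 CPM, adjusted p = 0.0207) and also in KO than in WT (34.0, 0 and 155 CPM in KO, adjusted p = 0.0207).

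Over all members of the lamina propria fraction 5 of 9366 genes were called between KO and WT (0.0534%), 3 higher (0.032%) and 2 lower (0.0214%) in KO, and 9 without library 2. Stox2, a storkhead-box transcription factor, stood at 4.70, 2.60 and 11.1 CPM in KO, 6.86, 5.20 and 9.51 in het and 40.7, 38.5 and 43.3 in WT (-2.87, SE 0.33, adjusted p = 0.0037), all WT libraries lying above the rest, library 3 included. The long noncoding RNA Gm42031 was higher in KO (163, 240.1 and 92.2 against 24.8, 33.0 and 39.9 CPM, 2.39). Without library 1 the adjusted p was 0.222 for Stox2 and 0.134 for Gm42031, so neither stayed called whichever library was left out. Gcg was called as well, but could not be tested without library 3, since of its 1594 UMIs 1237 lay in 1 KO cell and 345 in 1 het cell, both of library 3. Reg3b was not called over all members (555, 7247 and 2504 against 618, 1306 and 2132 CPM, adjusted p = 0.801).

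In the stem-like and transit amplifying-like cells of the lamina propria fraction, 10 to 75 cells per genotype and library, 68 of 6499 genes were called between KO and WT (1.05%), 33 higher (0.508%) and 35 lower (0.539%). This pair of states was chosen after the data were seen, because it held enough cells of every genotype. Reg3b stood at 637, 4976 and 809 CPM in KO, 1306, 3011 and 204 in het and 29.6, 399 and 4.87 in WT (KO minus WT 4.30, SE 0.39, adjusted p = 1.02e-07). Reg3g stood at 579.8, 3243 and 596 CPM in KO, 1066, 2210.1 and 195 in het and 32.1, 464 and 68.2 in WT (3.37, SE 0.36, adjusted p = 8.58e-07). Within every library the KO and het levels were above the WT level. Het cells differed from WT by 3.94 for Reg3b and 3.16 for Reg3g, 2 of the 18 genes called there (0.277%), 13 of them higher (0.2%) and 5 lower (0.0769%), with 4 calls without library 1 and 9 without library 2. These contrasts share the WT cells. Without the library as a block, neither gene was called in KO (log2 differences of 4.10 for Reg3b, adjusted p = 0.0775, and 3.16 for Reg3g, adjusted p = 0.0878) or in het (0.210 and 0.285).

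Other genes of mucosal defence were called in KO too. Of 11 antimicrobial genes 4 were higher and none lower: Reg3b, Reg3g, Duox2 (33.5, 94.6 and 39.3 against 8.23, 32.6 and 19.5 CPM, 1.71, SE 0.38) and Nos2 (1.46). H2-Q7, a nonclassical class I gene, was higher by 2.26, the immunoproteasome subunit Psmb8, whose KO and WT libraries overlapped, by 1.07 and, as 1 of 6 class II genes, H2-Ab1 by 0.97. Stem genes (8 tested) and transit amplifying genes (9 tested) were not called, Olfm4 at 3099.8, 2075 and 3304 against 3497, 2778 and 3407 CPM. Stox2 (0.957, 6.53 and 0 against 54.3, 40.7 and 39.0 CPM) and the immediate early genes Nr4a1 (-1.08) and Klf6 (-0.86), 2 of 19 dissociation genes, were lower. Of 23 called genes checked one by one, Reg3b, Reg3g, Gm42031 and the ephrin receptor Epha2 stayed called whichever library was left out. Leaving out library 1 left 9 calls in all, leaving out the second 39 and leaving out the third 40. Under the stricter immune exclusion 35 genes were called, with KO library 3 dropped because it held 9 cells.

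The genotypes drew on different clusters of these states. Stem-like cells (cluster 4) were 33 in KO, 35 in het and 58 in WT, and the transit amplifying-like cells lay mostly in cluster 11 in KO and het and in cluster 9 in WT. Reg3g is among the 10 leading genes of cluster 11, so that split is no separate result. In stem-like cells alone, Reg3b stood at 207, 239 and 12.3 CPM in KO (26, 3 and 4 cells), 102, 124 and 154 in het and 18.1, 0 and 4.97 in WT (42, 4 and 12 cells), KO library 3 lying within the WT range. Het against WT could be fitted in these cells, with log2 differences of 2.99 for Reg3b (adjusted p = 2.67e-05) and 2.08 for Reg3g (adjusted p = 0.000427). KO against WT could not, since 1 KO library held 10 or more stem-like cells.

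**Figure D5:**
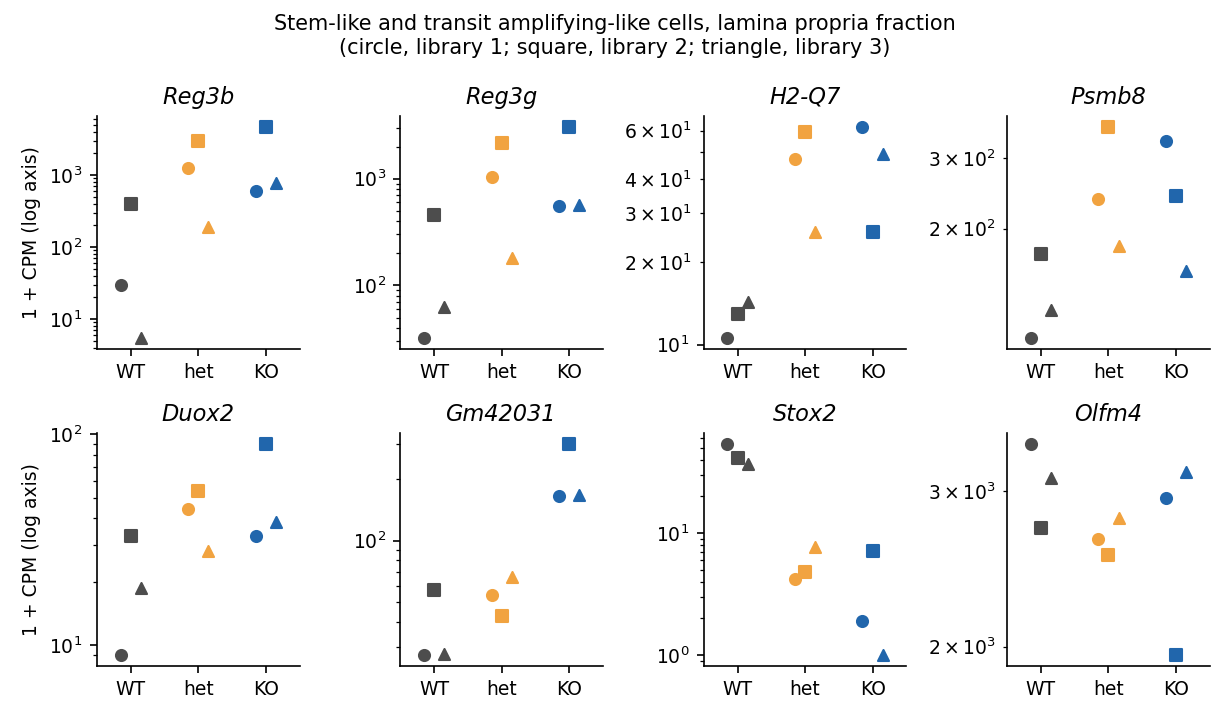
Level of 8 genes in the stem-like and transit amplifying-like cells of the lamina propria fraction, by genotype, as 1 plus CPM on a log axis, with 1 symbol per library. Reg3b, Reg3g, H2-Q7 and Gm42031 are higher in KO than in WT in each of the 3 libraries, Stox2 is lower in each, and Olfm4 stays within a narrow range.

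Reg3b and Reg3g lie near each other on chromosome 6, in opposite orientation, and moved together here, so their promoters are shown (RefSeq, GRCm38.p6, 250 bases before to 50 after the start, chr6:78370635-78370934 on the plus strand and chr6:78468825-78469124 on the minus strand). Capitals mark the longest run that both share, 29 bases long.
Reg3b: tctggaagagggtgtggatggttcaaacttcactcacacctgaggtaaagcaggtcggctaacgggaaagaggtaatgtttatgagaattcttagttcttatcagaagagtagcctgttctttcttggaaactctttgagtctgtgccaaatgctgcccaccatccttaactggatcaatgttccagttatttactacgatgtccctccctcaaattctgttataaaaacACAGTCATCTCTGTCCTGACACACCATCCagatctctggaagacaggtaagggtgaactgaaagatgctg
Reg3g: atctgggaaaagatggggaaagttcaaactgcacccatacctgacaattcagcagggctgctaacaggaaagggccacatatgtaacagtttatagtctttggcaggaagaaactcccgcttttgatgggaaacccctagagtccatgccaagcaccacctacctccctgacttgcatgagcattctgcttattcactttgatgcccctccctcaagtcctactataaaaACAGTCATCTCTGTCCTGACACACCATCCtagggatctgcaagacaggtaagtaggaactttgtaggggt
Aligned, 210 of 294 positions (71.4%) were identical. TATAAA occurred once in Reg3b and at 2 places in Reg3g. TTCNNNGAA, the motif bound by STAT factors, was found in Reg3b and not in Reg3g on either strand, and in 8.30% of all 32851 promoters of that length.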

How the data were processed

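Single-cell RNA and hashtag libraries were made with the 10x 5′ v2 chemistry, per the labels' protocols. The deposited matrices hold whole UMI counts, not normalized, which the authors made with Cell Ranger on mm10 and handled in Seurat, per the submitters' processing notes, with versions not given in the sources used here. Per the series' design text, the study kept cells with 200 to 8000 genes, 300 to 50000 molecules and under 20% mitochondrial counts. The matrices used here pool the libraries of a tissue. The barcode ending gave the library and, through the hashtag with the highest median count, the genotype, and no label states this map. No doublet caller was run.

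Members were clustered with scanpy 1.11.5 (2000 variable genes, 20 components, 15 neighbours, Leiden resolution 1) and named after an epithelial list with at least 3 fixed markers raised (2-fold, in 25% of cells), at least 2 among the 30 leading genes and no other list with more among the top 10. A cluster led by an immune list stayed unnamed. UMI counts were summed per library, and per genotype where sums held 10 or more cells. Genes were tested with edgeR 4.0.16 (quasi-likelihood, TMM, filterByExpr, library as a block for genotype, Benjamini-Hochberg adjustment over all genes tested), with DESeq2 1.42.0 as an alternative. Shares were compared by two-sided exact permutation tests over libraries, which did not pair the genotypes of a library. Each genotype sum comes from 1 mouse, or 2 pooled WT mice, of a run, as far as the endings map to runs. Counts were also simulated from the totals and gene spread of the data, but with no library effect on single genes and no difference in cell mix. How such effects would change the recovery was not tested. For the fraction comparison (11075 genes), 59% of genes changed by 1 and 95.96% of genes changed by 2 on the log2 scale were recovered, with 13 false calls. For KO against WT in the epithelium fraction (6397 genes) these shares were 44.33% and 96.7%, for het against WT (6395 genes) 42.71% and 93.33%, and for KO against het (6397 genes) 18.56% and 86.81%. The false calls in these 3 contrasts were 11, 6 and 5, beside 142, 6 and 3 genes called in the data. KO against WT in the lamina propria fraction gave 12 false calls, beside 5 called in the data. In the lamina propria crypt states there were 11 for KO against WT, beside 68 called, and 4 for het against WT, beside 18.

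Named genes were a fixed set, up to 12 called genes in each direction with the largest changes in every library, and list members of large change, and a few further genes were chosen after their values were seen. The members, states and gene lists were chosen with earlier results of these data known. Intervals and upper limits cover counting error only.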

Additional observations from a re-analysis of the deposited data

Results flagged for a closer look

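For 3 genes, the KO minus WT difference had one sign in every library of the epithelium fraction and the opposite sign in every library of the lamina propria fraction. The difference between the fractions was not tested for any of them. The log2 value of Fabp6, the ileal bile acid carrier, was 1.14 in the epithelium fraction and -3.10 in the lamina propria fraction, called in neither (edgeR adjusted p = 0.602 and 0.123). That of Lgr5 was 1.67 and -0.76, also called in neither (adjusted p = 0.104 and 0.472). Smoc2, a secreted matrix protein of crypt base stem cells, had 0.92 (adjusted p = 0.0408, called) and -0.24 (adjusted p = 0.794, not called). In the epithelium fraction the ileal enterocyte-like share was 7.40% of KO and 0.866% of WT members, 4 and 5 cells, and in the lamina propria fraction 4.77% and 5.85%, 7 and 11 cells. Its part in the Fabp6 values was not tested.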

How the results depend on the processing

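Leaving out 1 library gave 1044 to 2723 calls between the fractions and 3017 to 4637 against colon. For KO against WT in the epithelium fraction, 587 genes were called with no filter on low counts, 32 under the stricter immune exclusion, 69 with at least 5 Epcam UMIs and 55 without the library block, and 5 to 128 when 1 library was left out. For het against WT there, the counts were 22 with DESeq2, 318 with no filter, 3 at 5 Epcam UMIs, 17 with genotype by hashtag share and 2 to 17 over the leave-outs. For KO against het, they were 56 with DESeq2, 211 with no filter, 1 without the block and 0 to 37 over the leave-outs, and for KO against WT in the lamina propria fraction 9, 173, 2 and 6 to 9, with 3 at 5 Epcam UMIs and 12 by hashtag share. In the lamina propria crypt states, KO against WT gave 17 calls with DESeq2, 118 with no filter, 35 under the stricter exclusion (2 KO libraries, the third holding 9 cells), 6 without the block and 9 to 40 over the leave-outs, and het against WT 5, 79, 3 (without the block) and 4 to 21. Between fractions in these states, 285 genes were called with no filter and 77 to 257 over the leave-outs. The lamina propria member share, 0.376 percentage points higher in KO, became -0.463 by hashtag share and ranged from -0.134 to 0.900 over the leave-outs. In the epithelium fraction the KO minus WT share of Paneth-like cells ranged from -1.69 to 6.35 percentage points over the leave-outs and that of stem-like cells from -1.77 to 11.0.

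DESeq2 gave some genes no adjusted p, and those values were left out of the following tally. Among them were Gm42031, Epha2, Stox2, H2-Q7, Duox2 and Nos2 for KO against WT in the lamina propria crypt states. Of 2046 alternative values for 177 single-gene results, 1756 kept direction and call, 249 lost the call, 34 gained it and 7 changed sign. Those 7 were Reg3b, KO against WT genes, lamina propria fraction, by hashtag share (-1.005), Fabp6, epithelium against lamina propria genes, with WT cells only (-0.86), and the uncalled fraction differences of Reg3g (-0.29 to 0.94 over the leave-outs) and, in the crypt states, of Lgr5 (-0.49 to 0.16). The cause was not tested. Genotype by hashtag share could not be run for KO in the epithelium fraction, where 2 KO cells passed it. The labels number the runs across tissues, but no label ties a library of a pooled matrix to a run. The deviations of same-numbered libraries correlated at 0.000375, 0.183 and -0.0759 between the fractions and at 0.162, 0.0981 and 0.0145 against colon, so the numbers were not taken to pair the samples. A replicate block by library number, added after seeing the data, gave 2362 calls between the fractions, 4402 against colon and 184 in the crypt states, where the correlations were 0.149, 0.153 and 0.0657. In the crypt states every library correlated best with its own number, which was not so between all cells of the fractions or against colon. Of the single genes checked, Fabp6 gained the call between the fractions (1.11, adjusted p = 0.0162) and Ccl25 lost it (0.63, adjusted p = 0.0572), and no other single-gene call checked changed.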

Other observations

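Most UMIs of some enteroendocrine hormones lay in 1 cell. Of the epithelium fraction's 495 Ghrl UMIs, which encode ghrelin, 463 lay in 1 cell, and of its 200 Cck UMIs, cholecystokinin, 144 did. In the lamina propria fraction 186 of 197 Pyy UMIs, peptide YY, lay in 1 cell. Sct, secretin, had 2180 UMIs in 226 cells of the epithelium fraction, 36 of which held 10 or more, and 631 in 81 cells of the lamina propria fraction, 12 of which did, where 17 and 12 cells were enteroendocrine-like. Tph1, which starts serotonin synthesis, had 491 UMIs in 15 cells and 126 in 8 cells. Sst, somatostatin, had 0 and 1 UMIs.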
